A study of Mus musculus with 72 samples.

Results

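The genes described here encode the subunits of the respiratory chain that are read from nuclear DNA, measured in mouse liver and intestine on 2 diets around the day. A gene was a member when its symbol began with Nduf and 1 of the letters a, b, c, s or v and a number, was Sdha, Sdhb, Sdhc or Sdhd, or began with Uqcr, Cox4 to Cox8 or Atp5. Only probe sets with 1 symbol were used, and the probe set with the highest mean stood for the gene. This gave 83 of the 20771 genes, of which 37 belonged to complex I, 4 to complex II, 8 to complex III, 17 to complex IV and 17 to complex V. No measured level entered the choice of genes. Cox7c and Ndufb4 are subunit genes that were not members, because their probe sets carry several symbols. Cox7a2l matched the symbols although it encodes a supercomplex factor, and Ndufa4l2 matched as a paralog of Ndufa4, which is now assigned to complex IV. The complex was taken from the symbol here. All counts below therefore hold Ndufa4 and Ndufa4l2 under complex I and Cox7a2l under complex IV.

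The respiratory chain sits in the inner mitochondrial membrane. Complex I takes electrons from NADH and complex II from succinate, complex III passes them from ubiquinol to cytochrome c, and complex IV hands them to oxygen. The proton gradient that complexes I, III and IV build drives complex V, the ATP synthase. Both liver and intestinal epithelium burn fatty acids in this way, and a ketogenic diet, rich in fat and poor in carbohydrate, makes fatty acids the main fuel. Several complex IV subunits exist as isoforms, of which Cox7a1 and Cox6a2 are the heart and muscle forms and Cox6b2 is known from testis. Background on nuclear genes of the chain names the factors NRF1, GABP (an ETS factor) and YY1 as activators of their promoters.

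Each of the 72 samples was 1 array of a mouse gene array, in 24 groups of 3: liver or intestine, ketogenic diet or chow, at zeitgeber times (ZT) 0, 4, 8, 12, 16 and 20 h, where ZT counts hours from lights on. The mice were male C57BL/6J, 8 weeks old at the start, kept in 12 h of light and 12 h of darkness and fed the ketogenic diet or control chow freely for 4 weeks. Each combination of tissue and diet therefore had 18 arrays. The intestine samples carry the label INTESTINE (IEC). The protocol text shared by the samples also names a fructose gavage and sucrose in the drinking water. Whether those apply to these arrays is not stated, and nothing states that the 3 arrays of a group came from separate mice, so each p-value reflects only how these arrays vary. Values are log2(intensity + 16), and a difference of 1 on this scale is 2-fold. The added 16 makes changes of dim genes look smaller than they are.

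The tissue labels were checked on marker genes. The mean of 10 intestinal epithelium markers was 5.63 to 6.46 in liver arrays and 11.66 to 12.05 in intestine arrays, and that of 8 hepatocyte markers was 13.23 to 13.47 in liver arrays. In intestine arrays the hepatocyte mean had a median of 6.94 on the ketogenic diet and 6.80 on chow, but it was above 8 in 5 arrays, 4 of them ketogenic, with a highest value of 9.10 on the ketogenic diet and 10.05 on chow. All 3 ketogenic arrays at ZT 8 h (8.40 to 8.47) were among them, so at that time this signal and the diet cannot be told apart. Counts without these 5 arrays, which leave no ketogenic array at ZT 8 h, are given beside the intestine results. For the diet effect they are also given with ZT 8 h left out on both diets. By their residual SD, at 1.55 to 2.12 times the tissue's median, 3 ketogenic intestine arrays stood apart, 1 of them among these 5. In such bulk samples, fewer cells of a type and less RNA per cell cannot be told apart.

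The promoters of 67 of the 83 members were found in RefSeq (mouse build GRCm38.p6), as 250 bases before and 50 after the start of the gene. The NRF1 motif, GCGCA and GCGC with 1 base of any kind between them, was present in 16 of them (23.9%), against 5.19% of all 27025 genes with a promoter. The ETS motif CCGGAAG was present in 17 (25.4%), against 9.93% of all genes. The YY1 motif AANATGGC was also present in 17 (25.4%), against 6.96% of all genes. At least 1 of these 3 motifs, read on both strands, was present in 43 members (64.2%), against 19.4% of all genes. Other motifs lay closer to the share in all genes. CCAAT was in 43.3% of members and 41.1% of all genes, and GGGCGG in 40.3% and 38.2%. AGGTCA was in 23.9% and 18.1%, and CCGGAAGNG, which contains the ETS motif, in 5.97% and 4.56%. TATAA was in 16.4% of members and 28% of all genes, and CTA and TAG with 4 bases of any kind between them in 1.49% and 4.23%. These shares describe letters and not binding.

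The promoters of 4 members are shown because the results below turn on these genes. Cox7a1 was the member with the largest differences between tissues and between diets in liver, Cox7a2 is its isoform expressed in both tissues, and Ndufa8 and Ndufs6 fell most on the ketogenic diet in liver after Cox7a1. Capitals mark the 3 motifs above. Cox7a1 (chr7:30183921-30184220, plus strand) and Cox7a2 (chr9:79759804-79760103, minus strand) held none of them in this window. Ndufa8 (chr2:36049289-36049588, minus strand) held the NRF1 motif starting at base -30, counted with the start of the gene as 1 and no base 0. Ndufs6 (chr13:73328433-73328732, minus strand) held the NRF1 motif at base -16 and the YY1 motif at base 34.
Cox7a1: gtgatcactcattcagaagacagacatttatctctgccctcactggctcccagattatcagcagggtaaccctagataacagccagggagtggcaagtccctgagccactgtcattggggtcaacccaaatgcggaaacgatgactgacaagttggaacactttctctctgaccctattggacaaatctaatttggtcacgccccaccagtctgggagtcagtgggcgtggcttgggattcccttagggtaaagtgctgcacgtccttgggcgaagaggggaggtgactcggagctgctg
Cox7a2: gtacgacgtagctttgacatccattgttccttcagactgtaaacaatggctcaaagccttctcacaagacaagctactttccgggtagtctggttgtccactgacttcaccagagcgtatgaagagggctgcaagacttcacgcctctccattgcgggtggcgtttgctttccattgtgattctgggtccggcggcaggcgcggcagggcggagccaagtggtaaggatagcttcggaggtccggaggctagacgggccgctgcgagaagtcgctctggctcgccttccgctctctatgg
Ndufa8: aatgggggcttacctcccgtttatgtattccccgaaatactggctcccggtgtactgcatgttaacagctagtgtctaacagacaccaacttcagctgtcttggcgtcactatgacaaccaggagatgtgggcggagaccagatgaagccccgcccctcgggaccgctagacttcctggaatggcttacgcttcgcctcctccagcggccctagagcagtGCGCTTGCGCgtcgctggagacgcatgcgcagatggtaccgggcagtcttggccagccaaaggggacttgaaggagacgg
Ndufs6: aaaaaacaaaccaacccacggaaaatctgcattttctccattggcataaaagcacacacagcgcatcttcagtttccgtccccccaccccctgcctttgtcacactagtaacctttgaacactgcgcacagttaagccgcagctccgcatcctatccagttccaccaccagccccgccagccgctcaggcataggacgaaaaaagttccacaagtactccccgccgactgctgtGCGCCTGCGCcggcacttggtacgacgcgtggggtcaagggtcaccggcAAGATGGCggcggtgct

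Liver and intestine differed in opposite directions between complexes. Complex I genes were mostly higher in liver than in intestine, while complex IV genes were mostly lower in liver. In limma fits over the 10872 genes that passed the filter on low values in both tissues, 64 of 78 members were called (82.1%, adjusted p under 0.05), against 89% of all genes. Of these, 43 members were higher in liver (44.4% of all genes were) and 21 were lower in liver (44.7% of all genes were). The median difference of liver minus intestine was 0.10 over members and -0.001 over all genes. Cox6b2, Cox7b2, Cox8b, Cox8c and Ndufa4l2 had not passed in at least 1 tissue. For 16 members the array held several probe sets, and 21 of the 24 not used gave the same sign of the tissue difference as the 1 used. Where a gene has near-identical copies in the genome, these values may mix them.

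**Figure D1:**
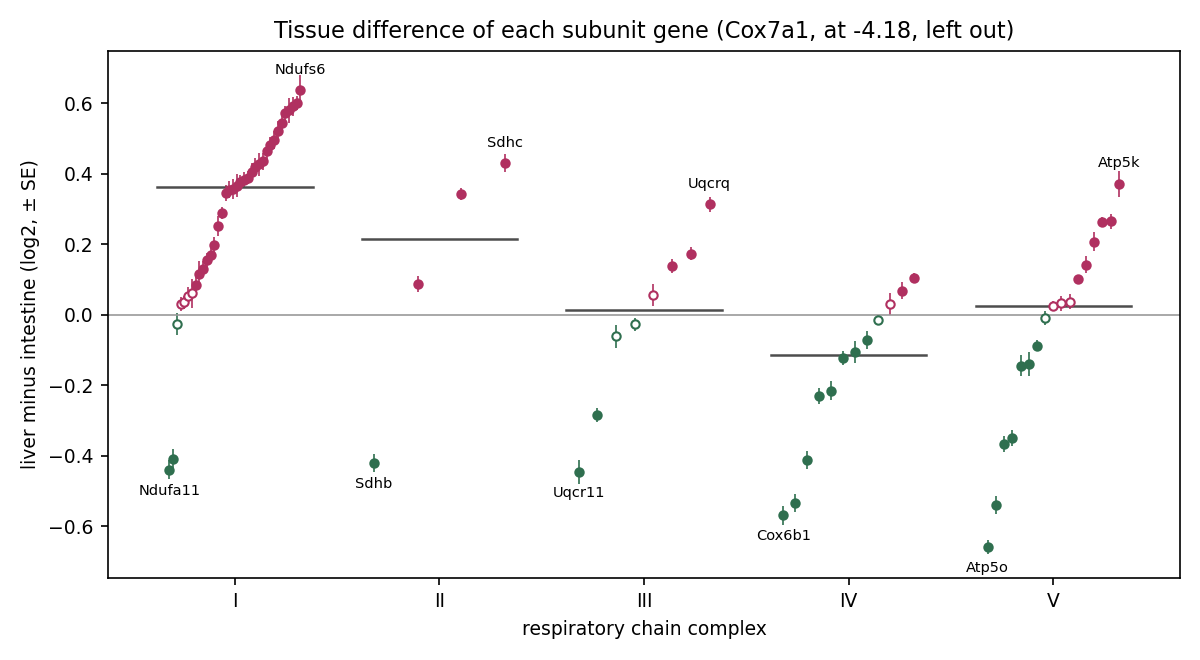
Difference of liver minus intestine (log2, vertical axis) for each member tested in both tissues, by complex; bars on the points are standard errors, filled points are called at an adjusted p under 0.05 and horizontal lines are medians of the genes drawn. Complex I lies mostly above 0 and complex IV mostly below it, and Cox7a1 at -4.18 is left out to keep the scale.

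Complex I, by symbol, contributed 29 of the 43 genes that were higher in liver, out of 36 tested, with a median difference of 0.36. Ndufa4 is 1 of these 29. Ndufs6, an accessory subunit with a zinc site, had the largest such difference, at 0.64 ± 0.044 (SE), followed by Ndufa8 at 0.60 ± 0.019, Ndufa7 at 0.59 ± 0.026, Ndufs5 at 0.58 ± 0.036 and Ndufb9 at 0.57 ± 0.021. Ndufa11 at -0.44 and Ndufb7 at -0.41 were the complex I genes that were lower in liver. Ndufa8 had a lowest, median and highest level of 10.67, 10.87 and 11.03 in ketogenic liver and 11.02, 11.16 and 11.43 in chow liver, against 10.31, 10.44 and 10.52 in ketogenic intestine and 10.28, 10.41 and 10.52 in chow intestine. No liver array was as low as any intestine array.

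Complex II, the 4 subunits of succinate dehydrogenase, was divided. Sdha, the flavoprotein, Sdhc and Sdhd, the membrane anchors, were higher in liver by 0.34, 0.43 and 0.09. Sdhb, the iron-sulfur subunit, was lower in liver, at -0.42 ± 0.025 (adjusted p = 1.70e-22 by limma). In complex III, 3 of 8 genes were higher in liver, among them Uqcrq at 0.31, and 2 were lower, Uqcr11 at -0.45 and Uqcrh at -0.28. In complex V, 6 of 17 genes were higher in liver and 7 were lower. Atp5o, a peripheral stalk subunit of the synthase, was lower in liver at -0.66 ± 0.020, and Atp5mpl at -0.54. Atp5k was higher in liver at 0.37.

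Complex IV had 9 of 13 tested genes lower in liver and 2 higher, with a median difference of -0.12. Cox7a1 had a lowest, median and highest level of 6.03, 6.52 and 6.82 in ketogenic liver and 6.67, 7.15 and 7.60 in chow liver, against 10.50, 10.98 and 11.55 in ketogenic intestine and 10.65, 11.06 and 11.48 in chow intestine. Every intestine array lay above every liver array. The difference was -4.18 ± 0.053 (SE, adjusted p = 5.47e-56 by limma), which is 18.1-fold higher in intestine on the scale of intensity + 16. No detection call was used, so whether the liver signal lies above background, and with it the size of the fold, is uncertain. Its isoform Cox7a2 differed far less, at -0.22, and Cox7a2l at -0.11.

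Among the other isoforms, Cox4i1, the common form of subunit 4, was lower in liver at -0.54 ± 0.026, and Cox4i2, known from lung and hypoxia, was higher at 0.07. Cox6b1 was lower in liver at -0.57 and Cox6a1 at -0.41, while Cox6a2 (0.03) and Cox8a (-0.02) were not called. Cox6c was higher in liver at 0.10. Of the isoforms of the ring subunit of complex V, Atp5g1 was higher in liver at 0.14 and Atp5g2 at 0.26, and Atp5g3 at 0.03 was not called. Ndufa4 was higher in liver at 0.48.

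Since Cox7a1 is a muscle form, markers of other cell types are given beside it. The mean of 6 smooth muscle markers was 6.97 to 7.30 in liver arrays and 6.26 to 6.69 in intestine arrays. That of 6 striated muscle markers was 6.71 to 7.42 in liver and 6.92 to 7.29 in intestine. Among these, the mean of Ckm, muscle creatine kinase, was 7.28 in ketogenic and 7.19 in chow liver and 7.21 in ketogenic and 7.02 in chow intestine, while Acta1, skeletal actin, was 7.97 in ketogenic and 7.85 in chow liver and 9.06 in ketogenic and 9.11 in chow intestine. That of 6 adipocyte markers was 6.06 to 7.08 in liver and 6.06 to 6.42 in intestine. What such cells contribute to the difference of Cox7a1 was not tested.

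The arrays of liver and of intestine did not overlap in 21 of 78 members (26.9%), against 33.4% of all genes. These included 13 of 36 complex I genes, Ndufa4 among them, and 3 of 13 complex IV genes. They also included 4 of 17 complex V genes, 1 of 4 complex II genes and 0 of 8 complex III genes.

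On the ketogenic diet in liver, members rose and fell in nearly equal number, and most changes were small. Cox7a1 and Ndufa8 fell most, while Ndufb3 and Ndufs1 rose a little. Of 79 members tested, 31 were called (39.2%), against 48.3% of all 12463 genes, and the median difference of ketogenic minus chow was -0.015, against -0.026 over all genes. Of these, 15 rose (19.3% of all genes did) and 16 fell (29% of all genes did). Centring each array on its median gave 6 that rose and 21 that fell, and quantile normalization gave 19 that rose and 13 that fell. Over all genes 1754 rose and 4495 fell after centring, and 2621 and 2964 after quantile normalization, against 2402 and 3616 before. Which small changes were called thus depends on the scaling. None of the 31 called members changed sign under either scaling, and 22 were also called after centring and 27 after quantile normalization. The median of all genes moved by less than 0.1 under each of these scalings.

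**Figure D2:**
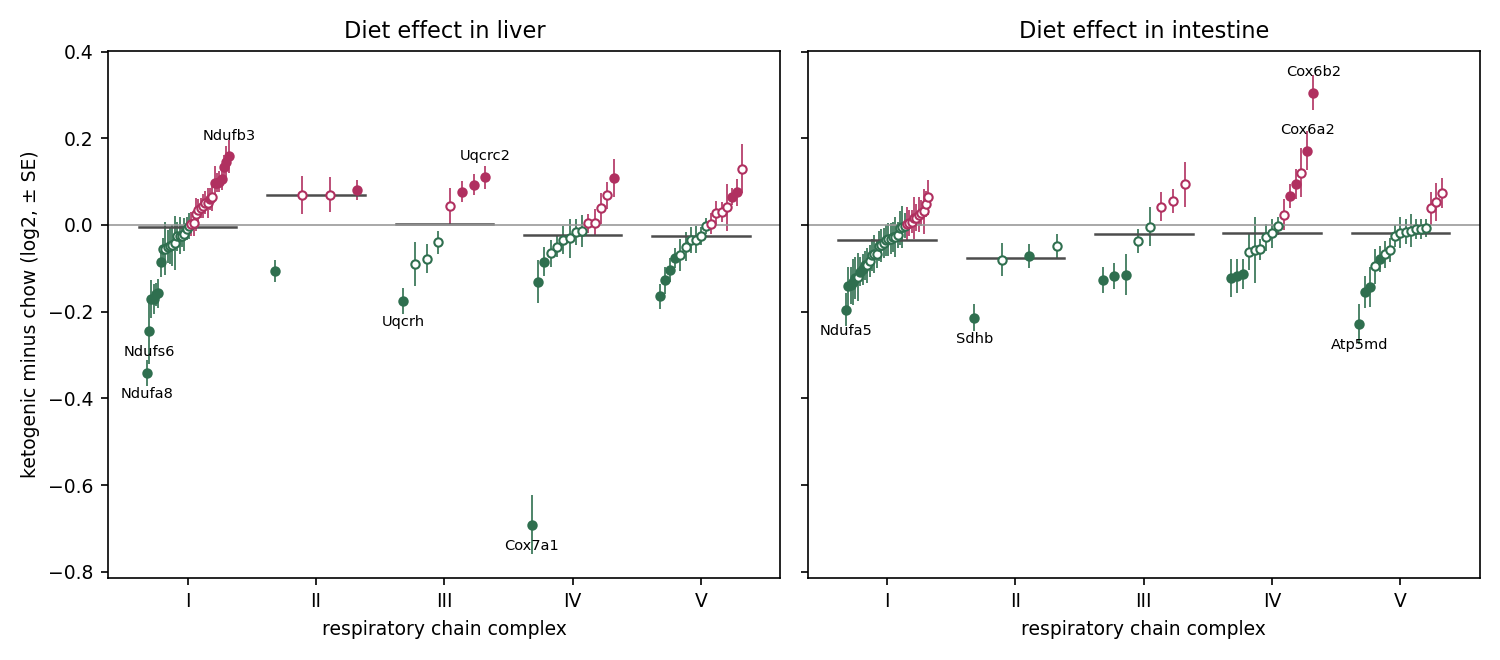
Difference of ketogenic minus chow (log2, vertical axis) for each member tested, by complex, in liver (left) and intestine (right); bars on the points are standard errors, filled points are called at an adjusted p under 0.05 and horizontal lines are medians. Cox7a1 in liver at -0.69 is the largest fall and Cox6b2 in intestine at 0.31 the largest rise, and most members lie within 0.2 of 0.

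Cox7a1 averaged 6.51 ± 0.21 in ketogenic liver and 7.20 ± 0.24 in chow liver (SD, n = 18 each). It fell at 6 of 6 time points, with differences of -0.72, -0.53, -0.92, -0.64, -0.78 and -0.57 at ZT 0, 4, 8, 12, 16 and 20 h. At each of them the 3 ketogenic arrays lay below the 3 chow arrays, and 13 of 18 ketogenic arrays lay below every chow array. The fitted difference was -0.69 ± 0.068 (SE, adjusted p = 2.62e-09 by limma). As a median the intensity was 76.0 in ketogenic liver and 126.4 in chow liver, so this fall took place at a low signal with no detection call, and its size is uncertain. The adipocyte marker mean, at 6.45 to 7.08 in ketogenic and 6.06 to 6.53 in chow liver, moved the other way, through Cfd at 9.78 in ketogenic and 6.97 in chow liver, and its part in the result was not tested.

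Ndufa8, an accessory subunit, had the smallest adjusted p of complex I. Its level was 10.67 to 11.03 in ketogenic liver and 11.02 to 11.43 in chow liver, and 17 of 18 ketogenic arrays lay below every chow array. The groups did not overlap at any of 6 time points. The difference was -0.34 ± 0.030 (SE, adjusted p = 3.84e-10 by limma). Ndufs6 followed at -0.24 ± 0.076 (adjusted p = 0.00928), with levels of 9.61 to 10.40 in ketogenic and 9.83 to 10.75 in chow liver that overlapped widely.

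In all, 8 complex I genes rose and 7 fell out of 36 (41.7% called), where 19.3% of all genes rose and 29% fell. The called share was 50% in complexes II and III, 28.6% in complex IV and 35.3% in complex V, against 48.3% of all genes. Of the 29 accessory subunits of complex I tested, 2 rose and 7 fell, to be read against the same shares of all genes. This grouping was made after the values were seen and was not tested. The other falls in complex I were Ndufs5 and Ndufb8 at -0.17, Ndufa13 and Ndufa6 at -0.16 and Ndufv3 at -0.09. Among the rises were Ndufb3 at 0.16 ± 0.039, Ndufs1, the largest iron-sulfur subunit, at 0.15 ± 0.037, Ndufs3 at 0.13 ± 0.027, Ndufs7, Ndufv1 and Ndufa3 at 0.10 and Ndufv2 at 0.06. Ndufs1 had a lowest, median and highest level of 9.76, 10.07 and 10.31 in ketogenic liver and 9.78, 9.92 and 10.10 in chow liver, which overlap.

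In complex II, Sdha rose by 0.08 ± 0.023 (adjusted p = 0.00517 by limma) and Sdhd fell by 0.11 on the log2 scale (adjusted p = 0.00138), while Sdhb and Sdhc were not called. In complex III, Uqcrc2 at 0.11 ± 0.027 and Uqcrc1 at 0.09, the core proteins, and Uqcrfs1, the Rieske iron-sulfur protein, at 0.08 rose. Uqcrh, the hinge protein beside cytochrome c1, fell at -0.18 ± 0.030 (adjusted p = 2.39e-05). Its level was 10.84 to 11.15 in ketogenic and 10.97 to 11.36 in chow liver.

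In complex IV, Cox6a2 rose at 0.11, and Cox7a1, Cox7a2l at -0.13 and Cox4i1 at -0.08 fell, out of 14 tested. Cox6a2 was dim in liver, with a mean of 7.005. Over all genes the median diet effect in liver was 0.02 with no filter, -0.026 in the main fit and -0.046 with the filter at the 60th percentile. What part such a dependence on level has in the rise of Cox6a2 was not tested. Cox7a2 was not called, with a mean of 10.73 ± 0.067 in ketogenic and 10.79 ± 0.10 in chow liver (SD, n = 18 each). In complex V, 2 of 17 genes rose, Atp5b, the catalytic beta subunit, at 0.07 and Atp5pb at 0.08. The falls were Atp5g1 at -0.16 ± 0.028 (adjusted p = 3.06e-05), Atp5o at -0.13, Atp5j2 at -0.10 and Atp5g2 at -0.08. The calls of Cox4i1, Cox7a2l and Cox6a2 were lost when single arrays were left out, each in over 10 of 36 cases.

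On the ketogenic diet in intestine, the called members mostly fell. Sdhb, Atp5md and Ndufa5 fell most, and Cox6b2 rose most. Of 80 members tested, 24 were called (30.0%), against 50.9% of all genes, and the median difference was -0.032, against -0.023 over all genes. Of these, 4 rose (19.7% of all genes did) and 20 fell (31.2% of all genes did). Centring each array gave 2 that rose and 30 that fell, and quantile normalization gave 7 that rose and 15 that fell. Over all genes 1775 rose and 4515 fell after centring, and 2859 and 3355 after quantile normalization, against 2453 and 3887 before. Without the 5 arrays with hepatocyte markers 3 members rose and 24 fell (2209 and 3820 of all genes), but this sets 5 ketogenic time points against 6 of chow. With ZT 8 h left out on both diets as well, 3 rose and 11 fell, and the calls of Cox4i1 (adjusted p = 0.169), Cox7a2 (0.101) and Cox5b (0.23) were lost, among others. In that fit 1780 of 12463 genes rose and 3333 fell. Without only the 3 arrays that stood apart, 7 members rose, and 3063 of all genes did. The mean of the epithelium markers was 11.66 to 11.96 in ketogenic and 11.83 to 12.05 in chow intestine, and that of 7 leukocyte markers 6.03 to 6.71 in ketogenic and 6.28 to 6.79 in chow intestine. Their part in these results was not tested.

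In complex II, Sdhb had a lowest, median and highest level of 10.94, 11.15 and 11.34 in ketogenic intestine and 11.21, 11.37 and 11.49 in chow intestine. It was lower at 6 of 6 time points, with differences of -0.36 to -0.08, and 12 of 18 ketogenic arrays lay below every chow array. The largest difference was at ZT 8 h, where all 3 ketogenic arrays carried hepatocyte markers, and Sdhb was lower in liver than in intestine. What this signal contributes to the fall of Sdhb was not tested. The fitted difference over all time points was -0.21 ± 0.030 (SE, adjusted p = 1.84e-06 by limma), and -0.18 ± 0.035 (adjusted p = 0.000336) without ZT 8 h and the other 2 arrays with hepatocyte markers. Sdha fell as well, at -0.07 ± 0.028 (adjusted p = 0.0321), while Sdhc and Sdhd were not called.

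In complex I, 8 of 36 genes fell (22.2%) and 0 rose, where 31.2% of all genes fell and 19.7% rose. The called share was 50% in complex II, 37.5% in complex III, 46.7% in complex IV and 23.5% in complex V, against 50.9% of all genes. In ketogenic intestine Ndufa5 was at 7.83 to 8.62, against 8.31 to 8.60 in chow intestine, and its difference was -0.20 ± 0.038 (adjusted p = 0.000126 by limma). The others of complex I were Ndufa1 and Ndufs6 at -0.14, Ndufb2 at -0.13, Ndufa6 at -0.12, Ndufb1 at -0.11, Ndufb5 at -0.10 and Ndufs1 at -0.09. In complex III, Uqcrfs1 at -0.13, Uqcrh at -0.12 and Uqcrb at -0.11 fell. In complex V, Atp5md, a small membrane subunit, at -0.23 ± 0.047 (adjusted p = 0.000232), Atp5c1, the central stalk, at -0.15 ± 0.037 (adjusted p = 0.00106), Atp5e at -0.14 and Atp5pb at -0.08 fell.

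All 4 rises in intestine were in complex IV. Of these, Cox6a2, Cox6b2 and Cox4i2 were dim, with means of 6.98, 7.69 and 8.31 in intestine. Over all genes the median diet effect in intestine was 0.018 with no filter, -0.023 in the main fit and -0.052 with the filter at the 60th percentile. With that last filter 2 members rose. What part such a dependence on level has in these rises was not tested. Cox6b2 was at 7.66 to 8.05 in ketogenic intestine and 7.21 to 8.00 in chow intestine, with medians of 7.81 and 7.51. It was higher at 6 of 6 time points, by 0.42, 0.44, 0.34, 0.25, 0.27 and 0.11 at ZT 0, 4, 8, 12, 16 and 20 h, and the groups did not overlap at 5 of them. The difference was 0.31 ± 0.041 (adjusted p = 8.57e-07 by limma), a 1.24-fold rise. Cox6a2 rose at 0.17 ± 0.045, Cox4i2 at 0.09 and Cox5b at 0.07, of which Cox5b was no longer called without the 5 arrays with hepatocyte markers (adjusted p = 0.228). Among striated muscle markers, Ckm averaged 7.21 in ketogenic and 7.02 in chow intestine and Tnnt3 7.60 in ketogenic and 7.42 in chow intestine. Myh1, Myh4 and Mb were also higher on the ketogenic diet. Acta1, the brightest, was lower, at 9.06 in ketogenic and 9.11 in chow intestine. In liver Ckm averaged 7.28 in ketogenic and 7.19 in chow and Tnnt3 7.60 in ketogenic and 7.46 in chow. The mean of all 6 was 6.98 to 7.29 in ketogenic and 6.92 to 7.15 in chow intestine. What muscle cells contribute to the rise of Cox6a2, the muscle form, was not tested. Cox7a2, Cox4i1 and Cox7a2l fell at -0.12, -0.12 and -0.11. Cox7a1 was not called, at -0.06 ± 0.077 (adjusted p = 0.546).

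**Figure D3:**
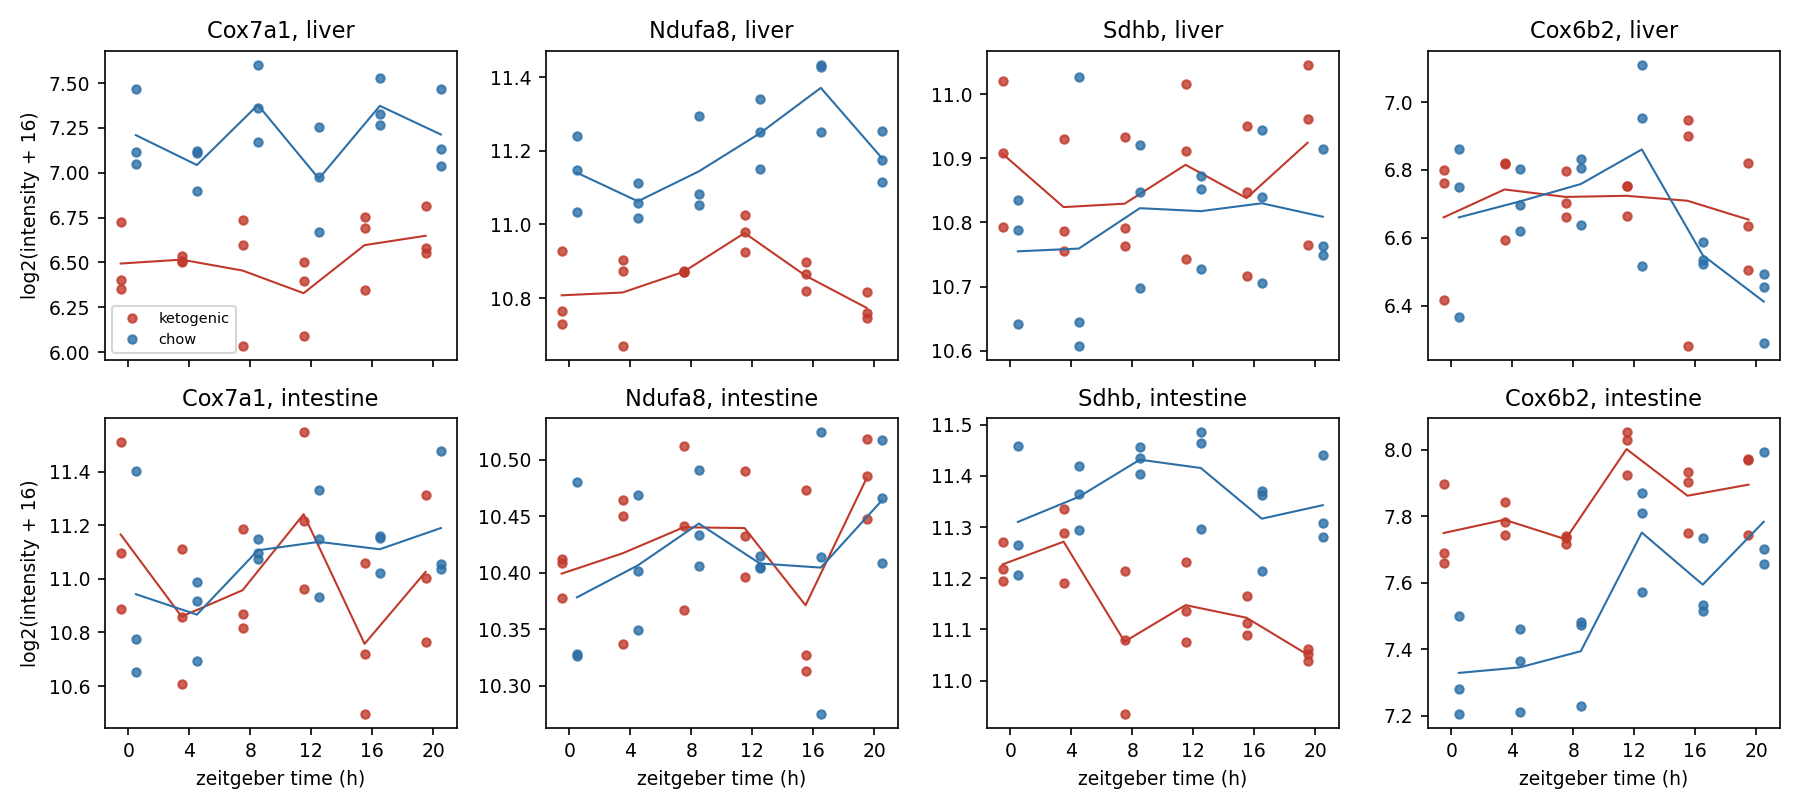
Levels of Cox7a1, Ndufa8, Sdhb and Cox6b2, log2(intensity + 16), against zeitgeber time in hours, in liver (top) and intestine (bottom); points are single arrays, lines join group means, red is ketogenic and blue is chow. The diets stay apart at every time point for Cox7a1 and Ndufa8 in liver and overlap in intestine, and Sdhb and Cox6b2 differ between diets in intestine.

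Of the 78 members tested in both tissues, 34 were called in neither. Another 5 fell in both (Cox4i1, Cox7a2l, Ndufa6, Ndufs6 and Uqcrh) and 1 rose in both (Cox6a2, dim in both tissues). A further 4 rose in liver and fell in intestine: Ndufs1, Sdha, Uqcrfs1 and Atp5pb. No member fell in liver and rose in intestine. How many of all genes fall in each of these classes was not counted, so the counts are not set against a background. Of all genes, 48.3% were called in liver and 50.9% in intestine. In liver the calls of Cox4i1, Cox7a2l and Cox6a2 were often lost when single arrays were left out, as given above.

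The diet effects themselves were compared between tissues as liver minus intestine. Here 22 of 78 members were called (28.2%), against 31.7% of all genes. In 16 the effect was more positive in liver (17.3% of all genes) and in 6 it was more negative in liver (14.4% of all genes). Without the 5 arrays with hepatocyte markers these counts were 19 and 4, and with ZT 8 h left out as well 12 and 4. Over all genes they were 1872 and 1403, and 1421 and 1216, against 1883 and 1561 with all arrays. For the tissue difference, the members counted without the 5 arrays were 43 higher and 22 lower in liver, and 43 and 20 with ZT 8 h left out as well. Over all genes these counts were 4809 and 4827, and 4726 and 4796, against 4824 and 4857 with all arrays. Cox7a1 differed by -0.63 ± 0.11 (adjusted p = 2.95e-06 by limma) and Ndufa8 by -0.35 ± 0.039 (adjusted p = 1.71e-10). Both fell in liver and were not called in intestine. Ndufa8 was at a median of 10.44 in ketogenic and 10.41 in chow intestine. Sdhb differed by 0.28 ± 0.051 (adjusted p = 1.22e-05) and Uqcrfs1 by 0.21 ± 0.037 (adjusted p = 1.64e-05). Ndufb3 at 0.25, Ndufs1 at 0.24, Atp5c1 at 0.18 and Sdha at 0.15 were also more positive in liver, and Atp5g1 at -0.20 and Uqcr10 at -0.17 more negative.

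**Figure D4:**
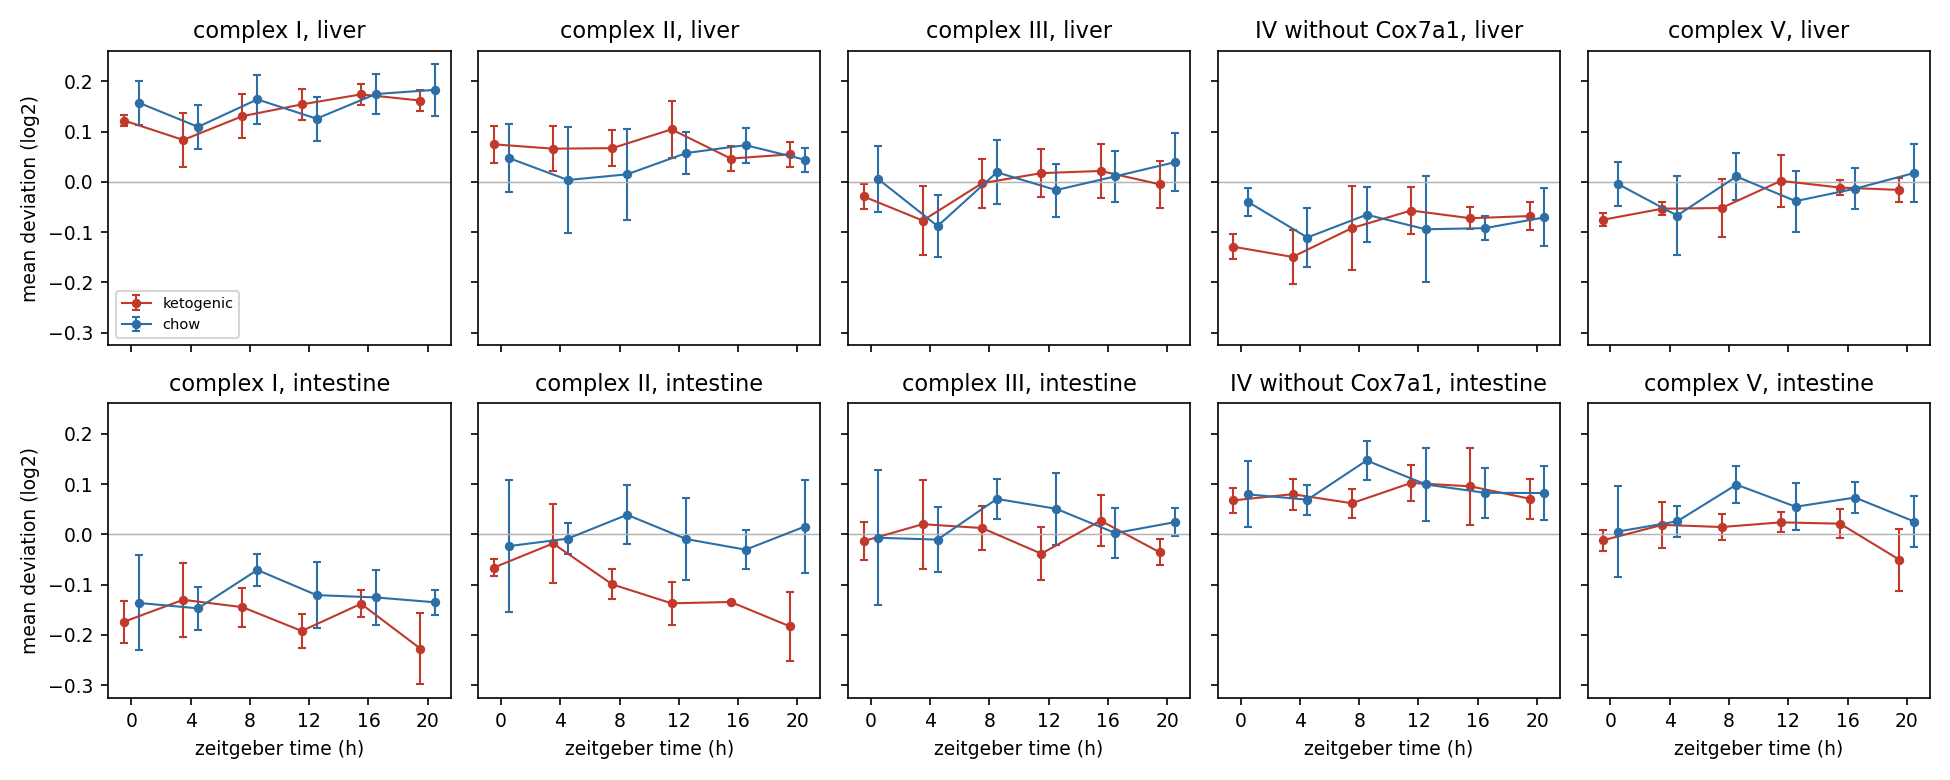
Mean deviation (log2) of the genes of each complex from their own mean over all arrays, against zeitgeber time in hours, in liver (top) and intestine (bottom); points are means of 3 arrays with their SD, red is ketogenic and blue is chow, and complex IV is drawn without Cox7a1. Complex I lies above 0 in liver and below 0 in intestine on both diets, and complex II in intestine lies lower on the ketogenic diet, most from ZT 8 h on.

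Few members were called rhythmic over the day. A cosine of 24 h period was fitted per diet, and its amplitude is the distance from mean to peak on the log2 scale. In ketogenic liver 9 of 79 members were called (11.4%), against 36.5% of all genes, and in chow liver 2 of 79 (2.53%), against 17.6% of all genes. In ketogenic intestine 2 of 80 were called, against 14.6% of all genes, and in chow intestine 2 of 80, against 8.87% of all genes. Without the 5 arrays with hepatocyte markers 1098 of 12463 genes were called in ketogenic intestine, against 1822 with all arrays. This setting holds no ketogenic array at ZT 8 h, and 2 members were called in it. In chow intestine it gave 1060 genes and 2 members, against 1106 genes with all arrays. The range of the 6 time-point means had a median over members of 0.129 in ketogenic and 0.131 in chow liver and 0.175 in ketogenic and 0.142 in chow intestine. Over all genes it was 0.238 in ketogenic and 0.222 in chow liver and 0.249 in ketogenic and 0.197 in chow intestine. The SD within time points had a median over members of 0.078 in ketogenic and 0.092 in chow liver, against 0.116 and 0.115 over all genes. In intestine it was 0.1 in ketogenic and 0.108 in chow, against 0.138 and 0.108 over all genes. What part this spread has in the ranges was not tested.

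In ketogenic liver the called genes were Ndufa2, Ndufb10, Ndufv2, Ndufb3, Ndufs3, Ndufa12, Atp5h, Atp5md and Uqcrb, with amplitudes of 0.085 to 0.18. Centring each array on its median left 2 members called (4326 of all genes), and a test of any difference between time points 4 (3213 of all genes). Ndufa2 peaked at 20.9 h (amplitude 0.14, adjusted p = 0.00257 by limma), with means of 10.50, 10.38, 10.29, 10.28, 10.48 and 10.55 at ZT 0, 4, 8, 12, 16 and 20 h. The other 8 peaked between 13.5 and 16.3 h, in the dark phase. Ndufb10 had means of 8.81, 8.87, 9.03, 9.23, 9.08 and 9.07 at these times (amplitude 0.18, peak 13.5 h, adjusted p = 0.00548). Ndufv2 (adjusted p = 0.00618) and Ndufb3 (adjusted p = 0.00736) followed. In ketogenic liver the authors' deposited table gave a q-value under 0.05 by JTK_CYCLE for 5 of 83 members, where 12.4% of all probe sets had one. These were Ndufa2, Ndufb10, Ndufb3, Ndufs3 and Ndufv2, all among the 9. Both methods used the same arrays, so this is no separate test. BIO_CYCLE gave one for 0 members, where 0.54% of probe sets had one. In chow liver, ketogenic intestine and chow intestine JTK_CYCLE gave one for 0 of 83, where 2.82%, 2.52% and 3.63% of probe sets had one.

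**Figure D5:**
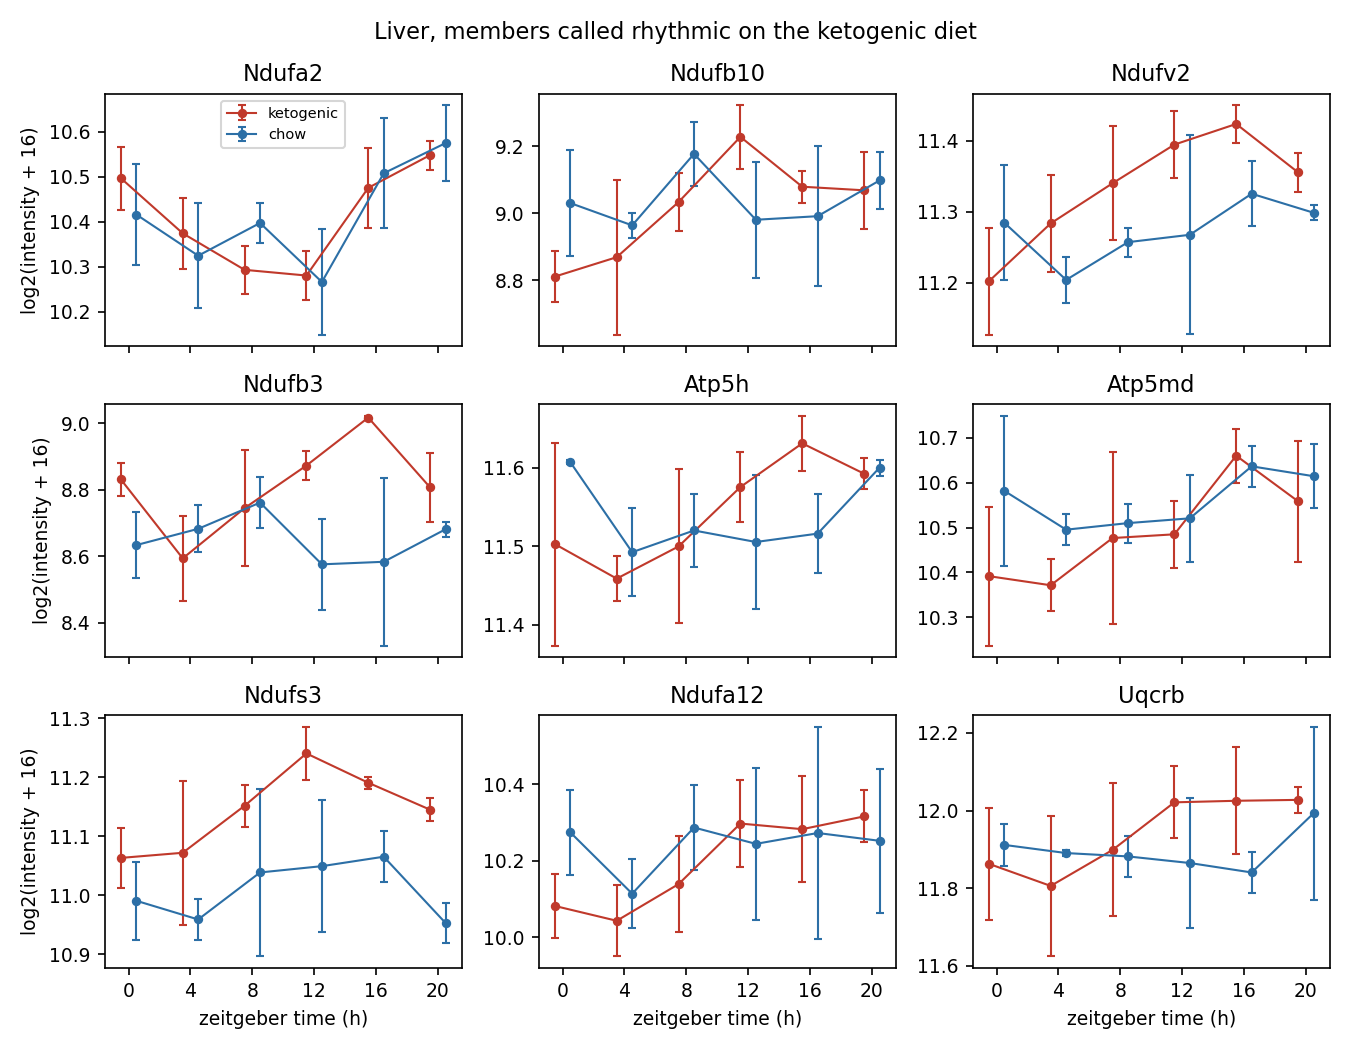
Levels of the 9 members called rhythmic in ketogenic liver, log2(intensity + 16), against zeitgeber time in hours; points are means of 3 arrays with their SD, red is ketogenic and blue is chow liver. All 9 have their highest mean in ketogenic liver at ZT 12, 16 or 20 h, and the difference in rhythm between diets was called for 0 of them.

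In chow liver Ndufa8 (amplitude 0.13, peak 15.4 h, adjusted p = 0.00701) and Ndufa2 (0.11, 19.7 h, adjusted p = 0.0291) were called. In ketogenic intestine Ndufb8 (0.12, 10.0 h, adjusted p = 0.0441) and Ndufa3 (0.10, 13.7 h, adjusted p = 0.0443) were called, and in chow intestine Cox6b2 (0.22, 15.8 h, adjusted p = 0.00687) and Ndufb8 (0.13, 10.8 h, adjusted p = 0.0437). Ndufb8 and Ndufa3 lost these calls without the 5 arrays with hepatocyte markers (adjusted p = 0.283 and 0.0712 on the ketogenic diet, and 0.0676 for Ndufb8 on chow), a setting with no ketogenic array at ZT 8 h, near the peak of Ndufb8. The counts there were again 2 on each diet, so other members were called in it.

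The rhythm itself was called different between diets for 0 of 79 members in liver by limma (4 at an unadjusted p under 0.05), against 1.19% of all genes, and for 0 of 80 in intestine (4 unadjusted), against 0.0401% of all genes. The smallest adjusted p was 0.0902 for Ndufb3 in liver and 0.479 for Ndufa3 in intestine, so a rhythm called on 1 diet is not shown to differ from the other diet. Between tissues it was called different for 6 of 78 members on the ketogenic diet, against 15.3% of all genes, and for 0 of 78 on chow (12 unadjusted), against 6.21% of all genes. The 6 were Ndufb10 (adjusted p = 0.0142), Ndufc1 (0.0263), Ndufs3 (0.0303), Ndufb8 (0.0427), Uqcrfs1 (0.0445) and Ndufa5 (0.0495). Without the 5 arrays with hepatocyte markers 5 members were called on the ketogenic diet. Over all genes 1132 of 10872 were called there, against 1660 with all arrays. On the ketogenic diet Ndufb10 peaked at 13.5 h in liver. Its rhythm in intestine was not called, so the fitted peak of 2.7 h there is uncertain.

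Genes that work with the chain were followed in the same fits, in which 19.3% of all genes rose and 29% fell on the ketogenic diet in liver and 19.7% rose and 31.2% fell in intestine. Of 42 assembly factors tested in liver, 8 rose and 9 fell on the ketogenic diet, with a median of -0.006, and of 38 in intestine, 2 rose and 9 fell. Between tissues 30 of 38 were higher in liver, with a median of 0.353, against 44.4% of all genes. Of the 19 electron carriers and enzymes that feed ubiquinone, 9 rose and 2 fell in liver and 10 rose and 4 fell in intestine on the ketogenic diet. In liver Etfdh, which passes electrons of fatty acid oxidation to ubiquinone, rose at 0.32 ± 0.035 (adjusted p = 3.01e-08 by limma) and its partner Etfa at 0.23. Gpd2, the glycerol phosphate dehydrogenase of the inner membrane, fell in liver at -0.56 and in intestine at -0.34. In intestine Coq4, of ubiquinone synthesis, rose at 0.36 and Etfb at 0.32.

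Of the 8 genes tested for ATP export and uncoupling, 1 rose and 3 fell in liver and 1 rose and 2 fell in intestine, to be read against the same shares of all genes (19.3% and 29% in liver, 19.7% and 31.2% in intestine). The uncoupling protein Ucp2 rose in both tissues, at 1.05 ± 0.063 in liver (2.08-fold, adjusted p = 1.05e-13) and at 0.11 in intestine. Of 15 regulators, 2 rose and 4 fell in liver and 3 rose and 7 fell in intestine. Ppargc1a, a coactivator of mitochondrial genes, fell at -0.35 in liver and at -0.89 ± 0.068 in intestine (adjusted p = 2.62e-11), and its partner receptor Esrra fell at -0.29 in liver and -0.21 in intestine. Esrrg rose at 0.32 and Ppara at 0.18 in liver, and Ppargc1b at 0.26 in intestine.

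Ribosomal protein genes were set beside the members and the same shares (19.3% of all genes rose and 29% fell in liver, 19.7% rose and 31.2% fell in intestine). Of the cytosolic ones, 0 of 58 rose and 51 fell in ketogenic liver, with a median of -0.163, while 11 of 59 rose and 2 fell in ketogenic intestine. Of the mitochondrial ones, 10 of 77 rose and 14 fell in liver, and 17 of 76 rose and 7 fell in intestine. Subunits encoded by mitochondrial DNA were not analysed here.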

How the data were processed

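The deposited values are PLIER intensities on a linear scale, made by the authors with Affymetrix Expression Console 1.1.1 per the submitters' processing notes. The authors' deposited workbook adds JTK_CYCLE and BIO_CYCLE q-values, per the file headers. The 72 arrays have medians of 105 to 121 over 35556 probe sets, and the number of arrays limits the precision. Probe sets were named from the platform table, then the workbook. Values were tested as log2(intensity + 16) with limma 3.58.1 in R 4.3.3, on 12463 genes per tissue above the 40th percentile of mean level and on 10872 genes above it in both. Benjamini-Hochberg adjustment covered all genes of a fit and the threshold was 0.05. Fits held a mean for each diet and time point, or a cosine and sine of 24 h per diet. Fits were tested on simulated data. Genes named with values were the largest or most certain calls per comparison, isoform pairs and succinate dehydrogenase. Members outside that rule were added after their values were seen. The values of 1 complex I member are not reported here by name. The members, lists and tests were chosen with earlier results of these data known. The samples of both tissues share title numbers, whose 22 same-number pairs had a median correlation of 0.02, so the numbers were not taken as pairs. Scaling, filters, probe sets, moderation, tests and left-out arrays were varied, as given in the closing section.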

Additional observations from a re-analysis of the deposited data

Results flagged for a closer look

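Of the 22 members whose diet effect differed between tissues by the limma test of that difference, liver minus intestine, the 4 with the smallest adjusted p are given. The values were -0.348 for Ndufa8 (adjusted p = 1.71e-10), -0.633 for Cox7a1 (2.95e-06), 0.283 for Sdhb (1.22e-05) and 0.205 for Uqcrfs1 (1.64e-05).

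Of the 6 members whose rhythm on the ketogenic diet differed between tissues by the limma test of both cosine terms, the 4 with the smallest adjusted p are given. The difference in amplitude, liver minus intestine, was 0.116 for Ndufb10 (peaks 10.82 h apart, adjusted p = 0.0142), -0.006 for Ndufc1 (8.71 h, 0.0263), 0.037 for Ndufs3 (9.43 h, 0.0303) and -0.067 for Ndufb8 (8.53 h, 0.0427). On this diet Ndufb10 and Ndufs3 were called rhythmic in liver only, Ndufb8 in intestine only and Ndufc1 in neither tissue. The distances between fitted peaks are therefore uncertain.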

How the results depend on the processing

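Liver diet calls (15 rose, 16 fell) became 6 that rose under median centring, and 0 and 2 with a fold of at least 1.2. Over all genes 2402 rose in the main fit and 1754 under median centring, and 459 rose and 590 fell with that fold. Intestine diet calls (4 rose, 20 fell) gave 2 that rose under a filter at the 60th percentile, 7 under quantile normalization, 2 under median centring, 7 without the 3 arrays that stood apart, and 1 and 0 with a fold of at least 1.2. Over all genes 2453 rose in the main fit, and 1152, 2859, 1775, 3063 and 261 rose in these settings, in this order. Without ZT 8 h on both diets and 2 more arrays with hepatocyte markers, which leaves fewer arrays, 11 members fell. For the other settings the cause was not tested. Rhythm calls rested on few genes. In ketogenic liver (9) median centring gave 2 and any difference between time points 4. Over all genes 4552 were called in the main fit, and 4326 and 3213 in these settings. In chow liver (2) quantile normalization gave 5, and no filter, median centring, any difference between time points and each diet alone gave 1 each. Over all genes 2189 became 2066, 1842, 1422, 1249 and 1725, in this order. With no filter 20771 genes were tested, against 12463 in the main fit. In ketogenic intestine (2) no filter, quantile normalization, median centring and each diet alone gave 0. Any difference between time points or leaving out the 3 arrays gave 1. Over all genes 1822 became 1679, 1998, 1710, 985, 1558 and 2243, in this order. In chow intestine (2) quantile normalization gave 4, leaving out the 3 arrays 5, and no filter, any difference between time points and each diet alone 1. Over all genes 1106 became 1197, 1925, 899, 594 and 1838, in this order. Rhythm differences between diets in liver (0) became 1 under quantile normalization, where 148 of all genes became 207. Those between tissues on the ketogenic diet (6) became 2 with no filter and 1 under median centring, where 1660 of all genes became 1856 and 1279. Those on chow (0) became 2 under quantile normalization, and 1 with no filter, the 60th percentile, a trend and robust moderation, without the 3 arrays, and without 2 chow liver arrays (ZT 8 h replicate 12 and ZT 12 h replicate 17), chosen from earlier results on clock genes. Over all genes the 675 called on chow became 668, 739, 570, 666, 957 and 652, in this order. No called gene whose value was recomputed changed direction under the settings given in this paragraph.

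With single arrays left out, liver diet calls ranged over 11 to 16 that rose and 13 to 19 that fell, and intestine diet calls over 2 to 6 and 16 to 25. Tissue calls ranged over 43 to 46 higher and 21 to 22 lower, and tissue by diet calls over 14 to 19 and 6 to 7. Rhythm calls ranged over 6 to 10 in ketogenic liver, 1 to 3 in chow liver, 0 to 4 in ketogenic intestine and 1 to 3 in chow intestine, and rhythm differences over 0 to 1 between diets in liver and 0 to 0 in intestine. Between tissues they ranged over 2 to 7 on the ketogenic diet, the 2 without liver ketogenic ZT 12 h replicate 11, and over 0 to 2 on chow.

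With the title number as a replicate block, 15 members rose and 17 fell in liver, 43 were higher and 21 lower between tissues, and no count moved by over 1.5 times. Within intestine the block could not be fitted, because the diets share too few numbers. Of 22 same-number pairs, 2 had a correlation over 0.1. The alternatives without the intestine arrays with hepatocyte markers were chosen after seeing the data.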
